A study of Mus musculus with 8 samples.

Results

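Expression of 30 genes of protein folding, quality control and stress signalling in the endoplasmic reticulum (ER) was measured by messenger RNA sequencing in naive mouse T cells that lack or keep Trappc1. The genes were taken by symbol from a list of ER chaperones, genes of ER-associated degradation (ERAD) and genes of the unfolded protein response. That list was drawn up with earlier results of these data known. All 30 genes were found among the 23337 gene symbols of each table. They comprise 9 soluble chaperones and co-chaperones, 4 disulfide isomerases, 2 lectin chaperones, 5 sensors and transcription factors, and 10 genes of ERAD and the translocon. The tables use older symbols for 3 of them: H47 is Selenos, Selk is Selenok and A930001N09Rik is Crebrf. Naive CD4 and CD8 T cells, gated as CD62L+ and CD44low, were sorted from spleens and mesenteric lymph nodes of mice aged 4 weeks. The 4 groups, with 2 libraries each, were CD4 cells of CD4-cre Trappc1 cKO mice (CD4 KO), CD4 cells of WT mice (CD4 WT), CD8 cells of the cKO mice (CD8 KO) and CD8 cells of WT mice (CD8 WT). CD4-cre drives Cre from Cd4 regulatory sequence in developing T cells, before the CD4 and CD8 lineages part, so that other cell types keep the gene. The sources used here do not give whether the WT mice carried Cre or floxed alleles, which part of Trappc1 was deleted, or whether replicates came from separate mice. The p-values therefore reflect how far these libraries lie apart, which may be a technical spread.

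Proteins that enter the secretory pathway are translocated into the ER, where chaperones and disulfide isomerases fold them. Proteins that fail to fold are returned to the cytosol and degraded, which is ERAD. When unfolded protein accumulates, the sensors Ire1 (Ern1), Perk (Eif2ak3) and Atf6 start the unfolded protein response, and 2 of its transcription factors, Xbp1 and the cleaved form of Atf6, raise transcription of chaperone and ERAD genes. Atf6 travels to the Golgi apparatus to be cleaved. Trappc1 belongs to the core of the TRAPP complexes, tethering factors for vesicles that move from the ER to the Golgi and within the Golgi. In lymphocytes the response is best known from plasma cells, which secrete antibody, whereas naive T cells secrete little.

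Some promoters of this gene group hold a known element. The list was chosen by gene function, with earlier results of these data known, and not by this element. Atf6 and Xbp1 act on such genes through it, however, so its frequency here is built into the list and is no separate finding. The ER stress element (ERSE) is CCAAT, 9 bases of any kind, then CCACG (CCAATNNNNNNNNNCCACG). The factor NF-Y binds the CCAAT end, and Atf6 and Xbp1 the CCACG end. Promoter windows of 250 bases before to 50 after the start were given by RefSeq on GRCm38.p6, the assembly behind mm10, for 26 of the 30 genes, and both strands were searched. Derl2 has 2 windows, and Hyou1, Manf, Atf6 and Derl1 were not in the table. The 220 bases before the start follow for 5 genes, 5′ to 3′ on the gene's own strand, with ERSE matches in capitals. Calr is the gene with the largest difference that passed the test, and Hspa5 is the classical target. Hsp90b1 and Creld2 carry matches and were above WT in both lineages, and P4hb was above WT in both lineages without a match. The whole P4hb window lies upstream of the gene's start in the expression data (chr11:120572936), so bases nearer to that start were not searched. The Xbp1 and Herpud1 windows likewise end before the starts of those genes (chr11:5520967 and chr8:94386500). Of the 2 Derl2 windows, 1 lies wholly upstream of that gene's start in the expression data.
Calr, chr8:84846932-84847151, minus strand: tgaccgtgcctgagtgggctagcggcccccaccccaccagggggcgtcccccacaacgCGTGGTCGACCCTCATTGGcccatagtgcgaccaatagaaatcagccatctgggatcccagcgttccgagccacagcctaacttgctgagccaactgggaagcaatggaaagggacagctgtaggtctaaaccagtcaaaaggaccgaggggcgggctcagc
Hspa5, chr2:34771870-34772089, plus strand: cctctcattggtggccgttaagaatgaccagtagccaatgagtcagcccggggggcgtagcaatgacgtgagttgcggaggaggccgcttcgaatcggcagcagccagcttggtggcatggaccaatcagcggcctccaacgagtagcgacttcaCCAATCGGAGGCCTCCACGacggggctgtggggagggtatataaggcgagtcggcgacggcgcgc
Hsp90b1, chr10:86705445-86705664, minus strand: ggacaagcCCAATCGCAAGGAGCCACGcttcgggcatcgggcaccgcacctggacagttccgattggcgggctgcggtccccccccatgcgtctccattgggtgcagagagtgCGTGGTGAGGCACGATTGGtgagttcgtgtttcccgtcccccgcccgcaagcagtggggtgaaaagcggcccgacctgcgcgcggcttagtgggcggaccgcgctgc
Creld2, chr15:88819426-88819645, plus strand: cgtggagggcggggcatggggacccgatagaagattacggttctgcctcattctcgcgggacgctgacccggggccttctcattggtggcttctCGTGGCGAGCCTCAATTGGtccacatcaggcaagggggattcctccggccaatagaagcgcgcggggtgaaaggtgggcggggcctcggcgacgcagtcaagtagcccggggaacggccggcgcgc
P4hb, chr11:120573254-120573473, minus strand: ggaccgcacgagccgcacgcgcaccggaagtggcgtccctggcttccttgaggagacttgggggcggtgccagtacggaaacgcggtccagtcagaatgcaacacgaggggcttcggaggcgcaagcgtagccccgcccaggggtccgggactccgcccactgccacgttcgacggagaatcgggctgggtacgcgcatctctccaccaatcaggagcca

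The ERSE stood in 9 of the 26 genes (34.6%), against 37 of 27025 genes with a window in the mouse genome (0.137%). These 9 were Calr, Canx, Creld2, Derl3, Dnajc3, Hsp90b1, Hspa5, Pdia6 and Syvn1, and Hsp90b1 held 2 matches. The shorter element ERSE-II (ATTGGNCCACG) stood in Dnajb11 and Herpud1, against 12 of 27025 genes (0.0444%). Thus 11 of 26 genes (42.3%) held one or the other, against 49 of 27025 (0.181%). The Xbp1-binding sequence TGACGTGG stood in 0 of 26 windows (0.714% of all genes), and the Atf4-binding sequence TGATGNAA stood in 1, that of Herpud1 (4.51% of all genes), where it does not overlap the ERSE-II. Matches to a motif are a description of these letters, and no match says only that they are not in this window. The matches of the other genes follow with 10 bases on each side, so that the fixed ends and the variable middle can be compared.
Canx, ERSE, chr11:50325790-50325828, minus strand: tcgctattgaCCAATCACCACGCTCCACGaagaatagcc
Dnajc3, ERSE, chr14:118937817-118937855, plus strand: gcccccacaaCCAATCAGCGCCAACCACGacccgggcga
Pdia6, ERSE, chr12:17266481-17266519, plus strand: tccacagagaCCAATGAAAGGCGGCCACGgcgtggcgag
Syvn1, ERSE, chr19:6046522-6046560, plus strand: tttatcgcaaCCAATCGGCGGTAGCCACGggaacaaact
Derl3, ERSE, chr10:75893232-75893270, plus strand: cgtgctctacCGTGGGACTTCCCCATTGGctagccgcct
Herpud1, ERSE-II, chr8:94386367-94386397, plus strand: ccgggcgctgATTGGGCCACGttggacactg
Dnajb11, ERSE-II, chr16:22857842-22857872, plus strand: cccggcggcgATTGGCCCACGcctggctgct

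**Figure D1:**
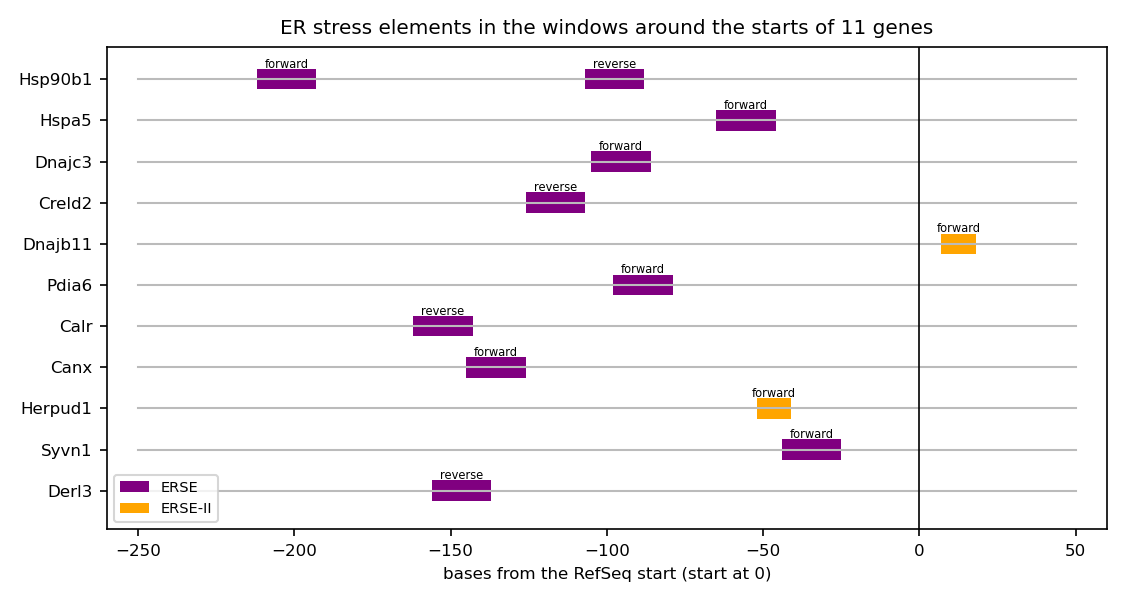
Positions of ERSE and ERSE-II matches in the RefSeq windows of the 11 genes that hold one. Positions are in bases from the RefSeq start, with the strand of each match relative to the gene. Matches begin up to 212 bases before the start, in Hsp90b1, and only the ERSE-II of Dnajb11 lies after the start.

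Genes with and without these elements had like medians in CD8 cells and less like ones in CD4 cells, as a description only. In CD4 KO against CD4 WT, the 11 genes with ERSE or ERSE-II had a median log2 difference of 0.30 with 7 of 11 positive, and the 15 with a window and neither element had a median of -0.02 with 7 of 15 positive. In CD8 KO against CD8 WT, the medians were 0.24 with 8 of 11 positive and 0.21 with 11 of 15 positive. The genes of both sets share libraries and were not chosen at random, and no test of the difference between the sets was made.

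Depth, estimated from coverage and fragment density, was 3.03 to 4.01 aligned gigabases per library. Values are TPM, a length-corrected share of transcripts, and hold no read counts, so no counting interval can be given, and a listed 0 may be a failed estimate. Cd4 stood at 543 to 764 TPM in CD4 libraries and at most 14.5 TPM in CD8 libraries, and Cd8a at 163 to 548 TPM in CD8 libraries and at most 4.10 TPM in CD4 libraries. Trappc1 had 30.5 and 32.8 TPM in CD4 KO, against 78.7 and 55.0 TPM in CD4 WT, and 56.9 and 45.6 TPM in CD8 KO, against 81.2 and 40.3 TPM in CD8 WT. Replicate 2 of the group labelled CD8 WT was thus below both CD8 KO libraries in the targeted gene, and the limma test called Trappc1 in neither lineage (adjusted p = 0.235 in CD4 and 0.869 in CD8). The same library stood apart in markers of other cells: its summed TPM was 30773 for 16 myeloid markers, against 516 to 2569 in the other 7 libraries, 86498 for 10 erythroid markers, against 60.8 to 2100, and 3249 for 11 plasma cell markers, against 356 to 676. It is 1 of 2 libraries on the WT side of every CD8 comparison below: without it the CD8 difference of 5 of the 30 genes (Dnajb9, Dnajc3, Atf6, Herpud1 and Sel1l) changed sign.

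Markers of other cells also differed with genotype in CD4 cells, and their part in the results below was not tested. The 14 B cell markers summed to 7145 and 6627 TPM in CD4 KO, against 15469 and 11472 TPM in CD4 WT, with 1 of 14 higher in KO. The 16 myeloid markers summed to 1655 and 2569 TPM in CD4 KO, against 760 and 516 TPM in CD4 WT, with 13 of 16 higher in KO, and up to 3 markers were listed at 0 in a library. The 11 plasma cell markers, of which Xbp1 and Derl3 belong to the 30 genes, summed to 484 and 441 TPM in CD4 KO, against 676 and 553 TPM in CD4 WT, and to 356 and 392 TPM in CD8 KO, against 445 and 3249 TPM in CD8 WT. The 8 NK and innate lymphoid markers summed to 41.1 and 49.1 TPM in CD4 KO, against 13.4 and 11.2 TPM in CD4 WT, with 8 of 8 higher in KO. Of these, Tyrobp and Fcer1g are also on the myeloid list, and Ncr1 and Klra8 averaged under 1 TPM. Fcer1g alone had 16.9 and 24.6 TPM in CD4 KO, against 8.2 and 3.96 TPM in CD4 WT. The 10 erythroid markers summed to 365 and 226 TPM in CD4 KO, against 60.8 and 135 TPM in CD4 WT, with 8 of 10 higher. Up to 5 markers of the NK or the erythroid list were at 0 in a library. The plasma cell gene Igj stood at 2140 TPM in CD8 WT replicate 2 and at 0 to 82.1 TPM in the other 7 libraries. In bulk RNA, fewer cells of a type and less RNA per cell cannot be told apart.

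**Figure D2:**
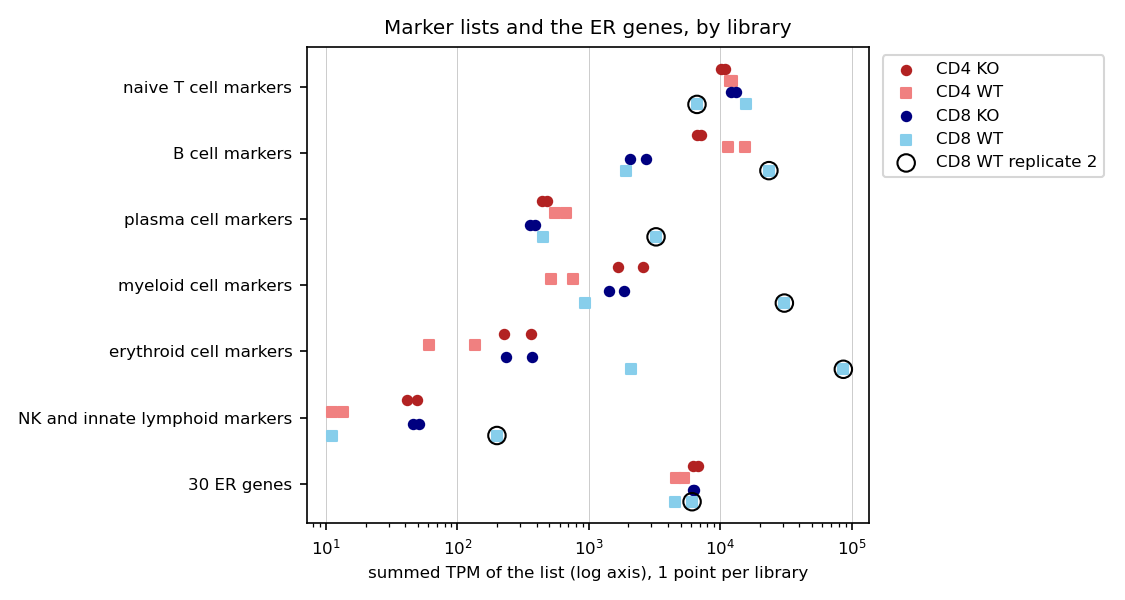
Summed TPM (log axis) of 6 marker lists and of the 30 ER genes, 1 point per library, with CD8 WT replicate 2 ringed. This library is the highest for B cell, plasma cell, myeloid, erythroid and NK markers and the lowest for naive T cell markers, while its sum over the ER genes, 6108 TPM, is within the range of the other libraries.

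Together the 30 genes made up 0.453% to 0.677% of transcripts. Their summed level was 6770 and 6193 TPM in CD4 KO, against 5322 and 4593 TPM in CD4 WT, and 6210 and 6340 TPM in CD8 KO, against 4530 and 6108 TPM in CD8 WT. In TPM, all 4 KO libraries thus lay above all 4 WT libraries, although CD8 WT replicate 2 came close. The median-of-ratios size factor of that library was 0.8155, against 0.9644 to 1.183 in the others. Dividing the sums by these factors would place this library highest. In CD4 cells Calr and Hspa5 held much of the gap, with means of 788 and 792 TPM in KO, against 174 and 220 TPM in WT. The median log2 difference over the 30 genes was 0.05 there. Mean TPM over the 8 libraries ran from 1293 for the disulfide isomerase Pdia3, through 671 for Hsp90b1, 628 for Hspa5, 402 for Calr, 288 for Xbp1 and 259 for Canx, down to 2.79 for Ern1 and 2.66 for Derl3. Hsp90b1 and Hspa5, neighbours in that order, do not differ beyond the range of Hspa5, which was 104 to 1421 TPM. All 30 genes passed the filter of a mean of at least 1 TPM.

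**Figure D3:**
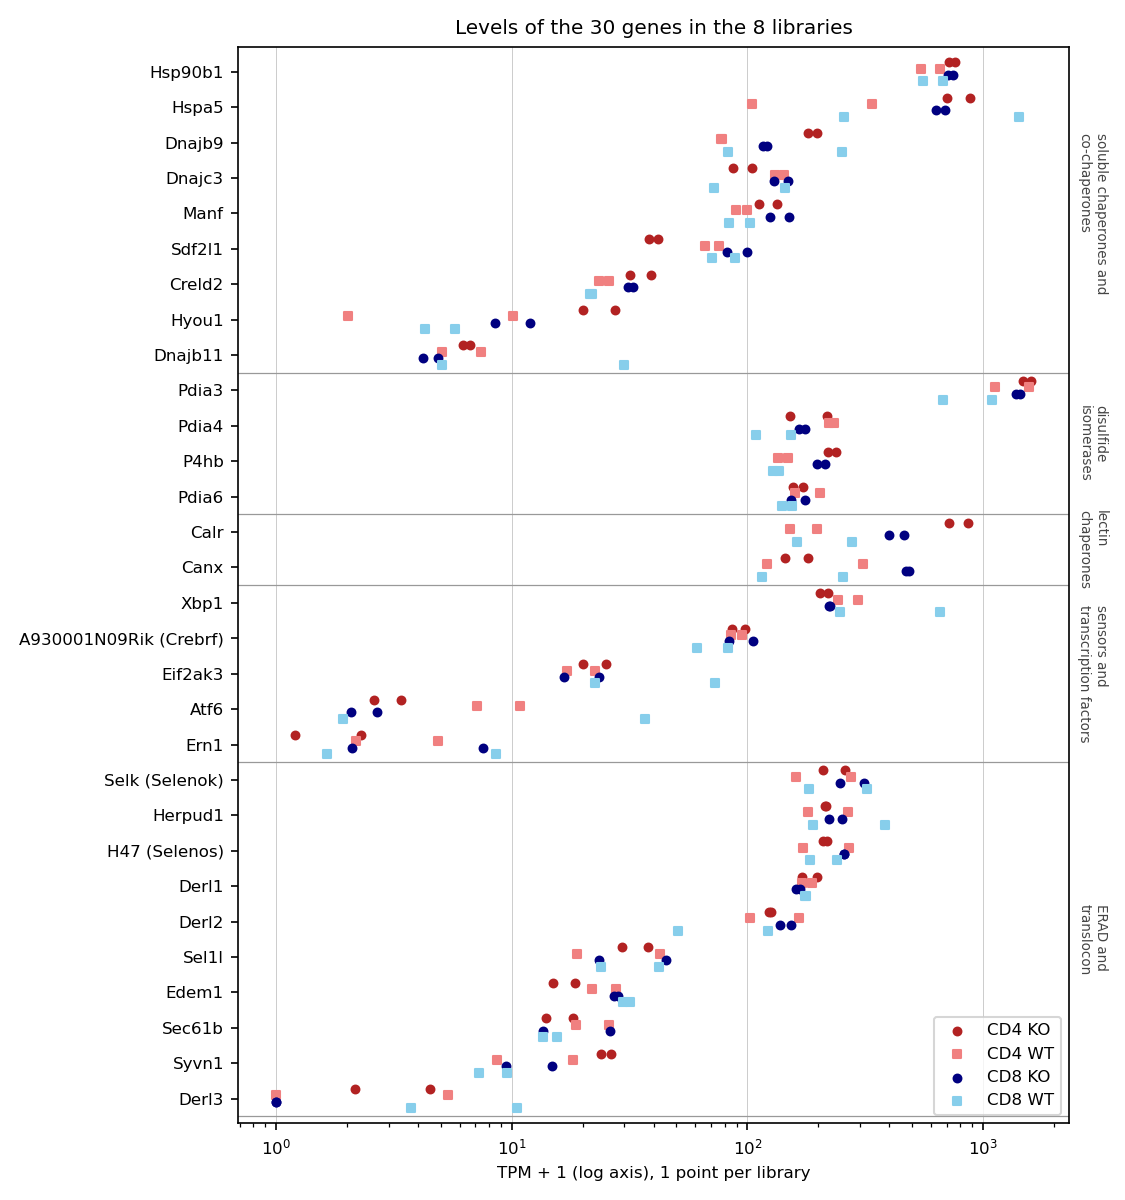
TPM + 1 (log axis) of the 30 genes in the 8 libraries, grouped by role, 1 point per library. Pdia3 is highest at 675 to 1604 TPM, the sensor Ern1 and Derl3 are lowest, and the CD8 WT points are spread widest.

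Replicates were close in KO groups and not in CD8 WT. The median absolute log2 difference between the 2 replicates over the 30 genes was 0.26 in CD4 KO, 0.43 in CD4 WT, 0.19 in CD8 KO and 0.73 in CD8 WT, beside 0.34, 0.40, 0.39 and 0.77 over all genes tested. Of the 30 genes, 11 differed by over 1 on the log2 scale between the CD8 WT replicates. CD8 WT replicate 2 was the highest of the 8 libraries for 9 genes (Hspa5, Dnajb9, Ern1, Atf6, Eif2ak3, Xbp1, Herpud1, Derl3 and Selk) and the lowest for 8 (Dnajc3, Manf, Creld2, Pdia3, Pdia4, Pdia6, A930001N09Rik and Derl2). It was therefore high for all 4 of the signalling genes Ern1, Atf6, Eif2ak3 and Xbp1 and low for 3 of the 4 disulfide isomerases.

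The first question was which of these genes differed between KO and WT. The test was limma on log2(TPM + 1) with Benjamini-Hochberg adjustment over 11786 genes, and a gene is called at an adjusted p under 0.05. In CD4 cells 1 of the 30 genes was called, Calr, which rose, beside 0.713% of all genes called in either direction. A further 5 had an unadjusted p under 0.05: Hspa5, Hyou1, Dnajb9 and P4hb were higher in KO and Sdf2l1 lower. These 6 of 30 stand beside 16.7% of all genes at that unadjusted level. In CD8 cells limma called 0 of the 30 genes, beside 0.297% of all genes, and 4 had an unadjusted p under 0.05, namely P4hb, Calr, Canx and Derl3, beside 15.1% of all genes. The median log2 difference over the 30 genes was 0.05 in CD4, with 17 positive and 13 negative, beside a median of -0.16 over all genes, of which 41.7% were positive. In CD8 it was 0.23, with 21 positive and 9 negative, beside 0.05 over all genes, of which 52.4% were positive.

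A count of genes without overlap between KO and WT libraries needs no model. The shares of all genes beside it are for reference, as the list was chosen with earlier results known. In CD4 cells both KO libraries were above both WT libraries for 9 of 30 genes, beside 21.7% of all genes, and below both for 7, beside 36.5%. In CD8 cells they were above for 12 of 30 genes, beside 23.0% of all genes, and below for 5, beside 19.1%. Both KO libraries were above WT in both lineages for 6 genes, beside 8.93% of all genes: Hsp90b1, Hyou1, Manf, Creld2, P4hb and Calr. They were below WT in both lineages for Xbp1 and Edem1, beside 11.1% of all genes. Without CD8 WT replicate 2, the 20 genes above WT in CD8 stood beside 32.4% of all genes, the 5 below beside 41.0%, the 9 above in both lineages beside 12.8% and the 2 below in both beside 23.6%. The 3 genes that joined the both-lineage set were Hspa5, Dnajb9 and Syvn1. Scaling to median-of-ratios size factors gave 13 above, beside 29.6% of all genes, and 4 below, beside 28.0%, in CD4. With FPKM these were 10, beside 24.9%, and 4, beside 32.7%. Xbp1, Pdia4 and Sec61b overlapped in CD4 cells under both scalings.

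**Figure D4:**
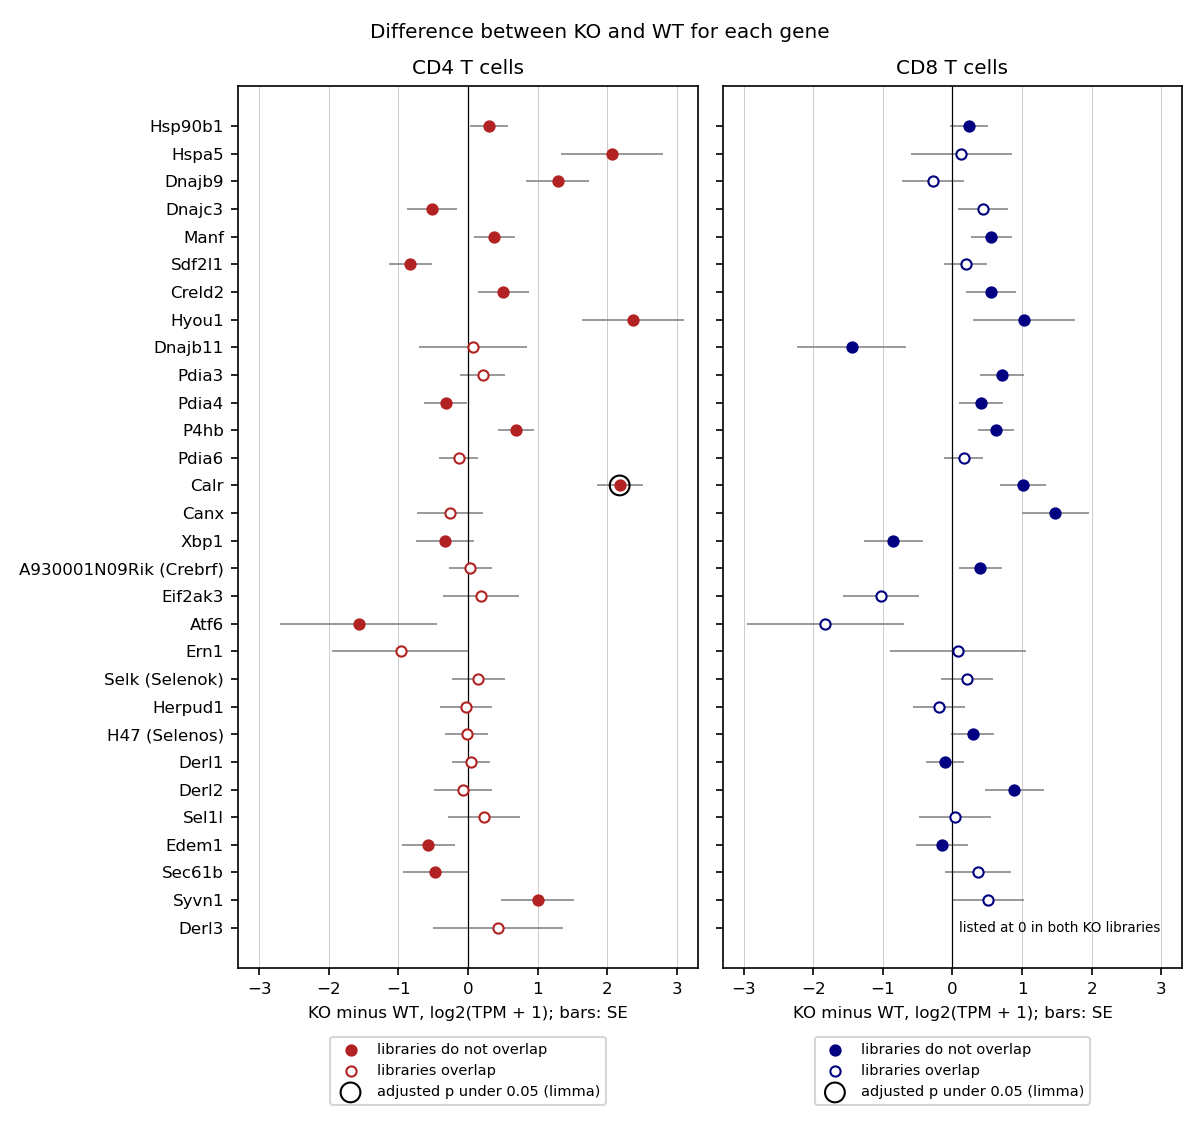
KO minus WT on the log2(TPM + 1) scale for each gene in CD4 (left) and CD8 cells (right), with standard errors from limma. Filled points mark genes without overlap between KO and WT libraries, and the ring marks the single call, Calr in CD4 cells; Derl3 has no CD8 point because both KO libraries list it at 0.

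Calr (chr8:84842088-84846931, minus strand), the soluble lectin chaperone calreticulin, which binds glycoproteins and stores calcium, had 859 and 716 TPM in CD4 KO, against 151 and 197 TPM in CD4 WT. Both KO libraries were far above both WT libraries. Its mean was 788 ± 101 TPM in CD4 KO and 174 ± 32.4 TPM in CD4 WT (SD, n = 2 each), a 4.52-fold ratio, with a log2 difference of 2.18 ± 0.33 (SE) and an adjusted p of 0.0319 by limma. In CD8 cells Calr had 398 and 462 TPM in KO, against 161 and 276 TPM in WT, without overlap, and a log2 difference of 1.02 ± 0.33 that was not called (adjusted p = 0.221, limma). Without CD8 WT replicate 2 the CD8 difference was 1.41 (adjusted p = 0.07), a fit in which the lone WT library is assumed to vary like the other groups, here and below. The CD4 call was made under 9 of 17 alternatives, with a log2 difference of 1.99 to 2.39 throughout. It was lost without the filter on low values, after removal of the trend with gene span, and when any one of the CD4 or the CD8 KO libraries was left out, with adjusted p from 0.0883 to 0.432. The smaller value in CD8 than in CD4 is not an established difference: the CD8 minus CD4 difference of the KO effects was -1.15 ± 0.46 (adjusted p = 0.701, limma).

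Canx, the membrane-bound partner of Calr in the same glycoprotein folding cycle, gave another pattern. It had 471 and 483 TPM in CD8 KO, against 114 and 253 TPM in CD8 WT, and 144 and 180 TPM in CD4 KO, against 120 and 307 TPM in CD4 WT. The CD8 libraries did not overlap, and the CD4 KO libraries lay between the 2 CD4 WT libraries. The log2 difference was 1.48 ± 0.48 in CD8 (adjusted p = 0.222) and -0.26 ± 0.48 in CD4 (adjusted p = 0.827), and the difference between these effects was 1.74 ± 0.68 (adjusted p = 0.701, limma). Without CD8 WT replicate 2 the CD8 value was 2.05 (adjusted p = 0.12). The pair of lectin chaperones thus shared a direction in CD8 cells, where neither was called, and not in CD4 cells.

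**Figure D5:**
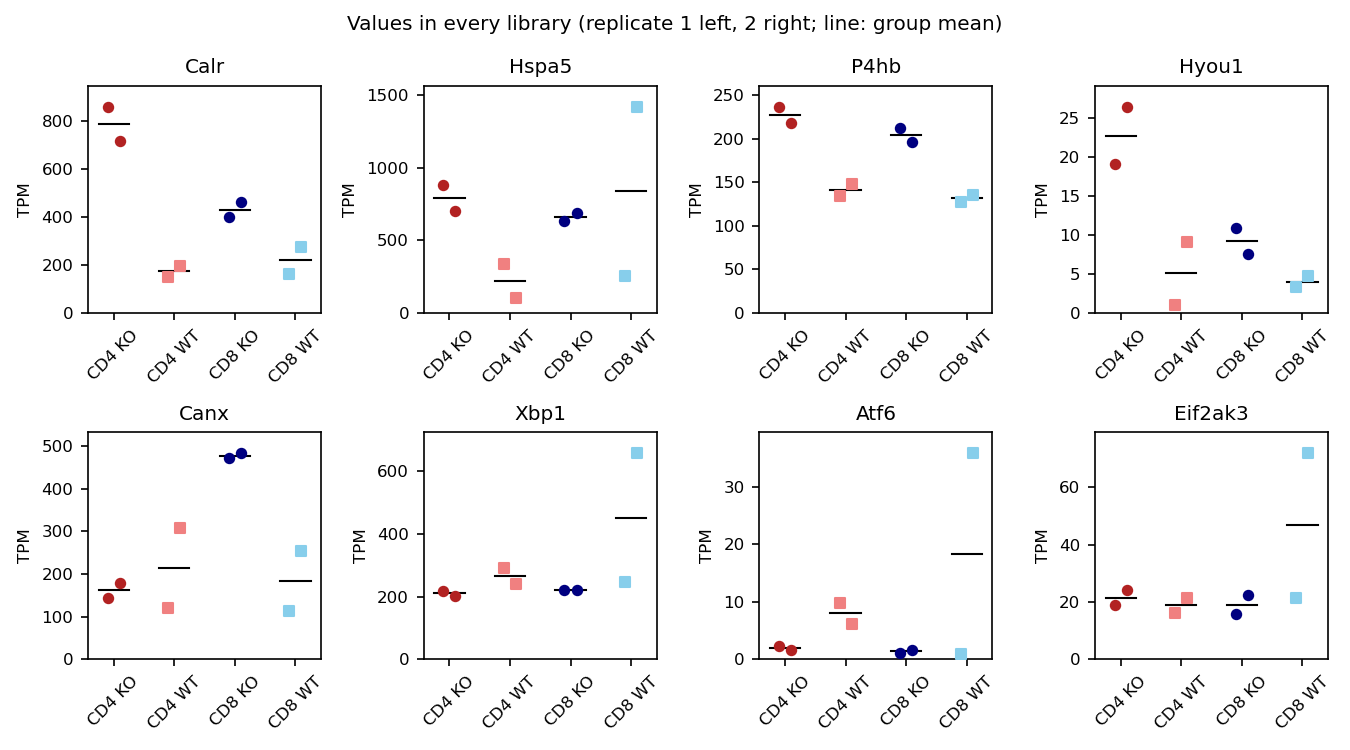
TPM of 8 of the genes in every library, replicate 1 left and replicate 2 right within each group, with the group mean as a line. Calr, P4hb and Hyou1 are higher in both KO groups than in the WT groups of the same lineage, whereas CD8 WT replicate 2 alone sets the high CD8 WT means of Hspa5, Xbp1, Atf6 and Eif2ak3.

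Among the soluble chaperones, Hspa5 (BiP), the ER Hsp70 that also holds the stress sensors inactive, had 881 and 703 TPM in CD4 KO, against 336 and 104 TPM in CD4 WT. The CD4 libraries did not overlap, but the 2 WT replicates lay far apart. The ratio of means was 3.60 and the log2 difference 2.07 ± 0.73, which was not called (adjusted p = 0.196, limma). Hspa5 was called with library weights (adjusted p = 0.0191, limma), a setting that called 1260 of all genes in CD4, against 84 in the main fit. It was also called when 1 CD8 WT library, replicate 1 or 2, was left out, in fits that likewise called far more genes in CD4. The log2 difference was 2.07 in each of these fits, and only its SE was smaller. In CD8 cells it had 633 and 691 TPM in KO, against 256 and 1421 TPM in WT, so the KO libraries fell between the WT replicates, and the log2 difference was 0.13 ± 0.73 (adjusted p = 0.946). Without CD8 WT replicate 2 it was 1.37 (adjusted p = 0.302).

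Hyou1, an Hsp110-type exchange factor for BiP, was at a low level. It had 19.0 and 26.4 TPM in CD4 KO, against 1.02 and 9.12 TPM in CD4 WT, and 10.9 and 7.51 TPM in CD8 KO, against 3.29 and 4.72 TPM in CD8 WT. The libraries did not overlap in either lineage. Its log2 difference was 2.37 ± 0.73 in CD4 (adjusted p = 0.154) and 1.03 ± 0.73 in CD8 (adjusted p = 0.521, limma). The CD4 value was the largest of the 30 genes and was called with library weights alone (adjusted p = 0.0365, limma). Those weights called 1260 of all genes in CD4, against 84 in the main fit. Hsp90b1 (Grp94), the ER Hsp90, was at a high level with small differences: 760 and 717 TPM in CD4 KO, against 547 and 656 TPM in CD4 WT, and 743 and 711 TPM in CD8 KO, against 677 and 556 TPM in CD8 WT. Its log2 differences were 0.30 ± 0.27 in CD4 and 0.24 ± 0.27 in CD8 (adjusted p = 0.601 and 0.678, limma). After removal of the trend with gene span its CD8 value was 0.

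Manf and Creld2, small secreted or luminal ER proteins induced by ER stress, showed modest values on the same side. Manf had 132 and 111 TPM in CD4 KO, against 98.3 and 88.4 TPM in CD4 WT, and 124 and 149 TPM in CD8 KO, against 102 and 82.3 TPM in CD8 WT. Creld2 had 30.8 and 37.8 TPM in CD4 KO, against 22.5 and 24.9 TPM in CD4 WT, and 31.7 and 30.2 TPM in CD8 KO, against 20.8 and 20.5 TPM in CD8 WT. No KO library of either gene overlapped WT in its lineage. The log2 differences were 0.38 ± 0.29 and 0.56 ± 0.29 for Manf and 0.51 ± 0.36 and 0.56 ± 0.36 for Creld2, in CD4 and CD8, with adjusted p of 0.398 to 0.552 (limma).

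The J-domain co-chaperones of BiP did not move as one. Dnajb9 (ERdj4), which returns Ire1 to its inactive state with BiP, averaged 188 ± 12.9 TPM in CD4 KO and 76.3 ± 0.458 TPM in CD4 WT (SD, n = 2 each), a log2 difference of 1.29 ± 0.45 (adjusted p = 0.196, limma). It was called when the 2 CD4 groups were fitted alone (adjusted p = 0.0461) and with library weights (adjusted p = 0.0143, limma). These settings called 243 and 1260 of all genes in CD4, against 84 in the main fit. Dnajb9 was also called there when 1 CD8 WT library, replicate 1 or 2, was left out, at the same log2 difference of 1.29. Those fits, too, called far more genes in CD4 than the main fit. In CD8 cells its mean was 118 TPM in KO and 166 TPM in WT, where the 2 replicates were at 82.1 and 251 TPM, and its log2 difference was -0.28 with all libraries and 0.51 without CD8 WT replicate 2. Dnajc3 (P58IPK) averaged 94.9 TPM in CD4 KO and 136 TPM in CD4 WT, without overlap, and 138 TPM in CD8 KO and 107 TPM in CD8 WT. Its CD8 WT replicates were at 143 and 71.2 TPM, and the CD8 log2 difference was 0.44 with all libraries and -0.06 without replicate 2. Dnajb11 (ERdj3) averaged 5.43 TPM in CD4 KO and 5.23 TPM in CD4 WT, and 3.52 TPM in CD8 KO and 16.5 TPM in CD8 WT, where replicate 1 alone was at 28.9 TPM. Sdf2l1, a luminal partner of these co-chaperones, was lower in CD4 KO without overlap, at 38.8 ± 2.43 TPM against 69.8 ± 7.15 TPM in CD4 WT (log2 difference -0.83 ± 0.31, adjusted p = 0.223), and averaged 89.8 TPM in CD8 KO and 78.5 TPM in CD8 WT.

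Of the 4 disulfide isomerases, P4hb (protein disulfide isomerase itself) had the tightest values. It had 237 and 218 TPM in CD4 KO, against 134 and 148 TPM in CD4 WT, and 213 and 196 TPM in CD8 KO, against 128 and 135 TPM in CD8 WT. All 4 KO libraries lay above all 4 WT libraries. The ratio of means was 1.61 in CD4 and 1.55 in CD8, and the log2 differences of 0.69 ± 0.26 and 0.63 ± 0.26 were not called (adjusted p = 0.232 and 0.306, limma). Without CD8 WT replicate 2 the CD8 value was 0.67 (adjusted p = 0.186).

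Pdia3 (ERp57), which works with Calr and Canx on glycoproteins, had 1604 and 1475 TPM in CD4 KO, against 1563 and 1127 TPM in CD4 WT, and 1437 and 1375 TPM in CD8 KO, against 1088 and 675 TPM in CD8 WT. Only the CD8 libraries were without overlap, and the log2 differences were 0.21 ± 0.32 in CD4 and 0.71 ± 0.32 in CD8 (adjusted p = 0.778 and 0.334, limma). The CD8 value was 0.37 without CD8 WT replicate 2, the lowest of the 8 libraries. Pdia4 averaged 184 TPM in CD4 KO and 227 TPM in CD4 WT, and 170 TPM in CD8 KO and 130 TPM in CD8 WT, with no overlap in either lineage. Its CD8 log2 difference was 0.41 with all libraries and 0.17 without CD8 WT replicate 2. Pdia6 averaged 163 TPM in CD4 KO and 180 TPM in CD4 WT, and 164 TPM in CD8 KO and 146 TPM in CD8 WT, and its libraries overlapped in both.

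None of the 5 sensors and transcription factors was called in either lineage, beside 0.713% (CD4) and 0.297% (CD8) of all genes. Their values did not share a direction. Xbp1, the transcription factor whose RNA Ire1 splices, had 219 and 202 TPM in CD4 KO, against 293 and 241 TPM in CD4 WT, and 221 and 223 TPM in CD8 KO, against 246 and 658 TPM in CD8 WT. In TPM all 4 KO libraries were below all 4 WT libraries, but the CD4 libraries overlapped with FPKM and with median-of-ratios scaling. The log2 differences were -0.33 ± 0.42 in CD4 and -0.85 ± 0.42 in CD8 (adjusted p = 0.724 and 0.368, limma). Without CD8 WT replicate 2 the CD8 value was -0.14 (adjusted p = 0.78). Xbp1 is itself on the plasma cell list, of whose 11 members 6 were highest in that library. Gene-level TPM does not separate spliced from unspliced Xbp1.

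Ern1 (Ire1) had 1.28 and 0.197 TPM in CD4 KO, against 1.18 and 3.84 TPM in CD4 WT, and 6.53 and 1.09 TPM in CD8 KO, against 0.646 and 7.55 TPM in CD8 WT. Its replicates differed more than its groups. Atf6 had 2.40 and 1.60 TPM in CD4 KO, against 9.87 and 6.14 TPM in CD4 WT, and 1.08 and 1.69 TPM in CD8 KO, against 0.928 and 35.8 TPM in CD8 WT. The CD4 libraries did not overlap, and a single CD8 WT library set the CD8 value. The log2 differences of Atf6 were -1.57 ± 1.13 in CD4 and -1.83 ± 1.13 in CD8 (adjusted p = 0.516 and 0.464, limma), and without CD8 WT replicate 2 the CD8 value was 0.30. Eif2ak3 (Perk), which phosphorylates the initiation factor eIF2alpha, had 19.0 and 24.1 TPM in CD4 KO, against 16.1 and 21.5 TPM in CD4 WT, and 15.7 and 22.4 TPM in CD8 KO, against 21.5 and 71.8 TPM in CD8 WT. Its CD8 log2 difference was -1.03 ± 0.55 with all libraries (adjusted p = 0.407, limma) and -0.18 without CD8 WT replicate 2. A930001N09Rik (Crebrf), a repressor of the response, averaged 90.9 TPM in CD4 KO and 89.0 TPM in CD4 WT, and 94.0 TPM in CD8 KO and 71.1 TPM in CD8 WT, with a CD8 log2 difference of 0.40 that was 0.18 without CD8 WT replicate 2.

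Atf6 was the longest of the 30 genes, at 163 kb, and across all genes the KO and WT difference moved with gene length. Lower values in KO were found for 89.6% in CD4 and 83.8% in CD8 of the 1047 genes of 100 kb or more, against 41.1% and 34.6% of 3623 genes under 10 kb. Most of the 30 genes are short or of middle length: 13 spanned under 10 kb and 16 from 10 to 100 kb. With the trend on span removed, the log2 difference of Atf6 was -0.39 ± 1.22 in CD4 and -1.03 ± 1.22 in CD8, that of Calr in CD4 was 2.01 ± 0.36 (adjusted p = 0.101, limma), and that of P4hb was 0.65 ± 0.24 in CD4 and 0.37 ± 0.24 in CD8.

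Of the 10 genes of ERAD and the translocon, limma called 0 in either lineage, beside 0.713% (CD4) and 0.297% (CD8) of all genes. An unadjusted p under 0.05 was found for 0 in CD4, beside 16.7% of all genes, and for 1, Derl3, in CD8, beside 15.1%. A list of 10 genes is too short to tell these counts from those shares. Edem1, which hands misfolded glycoproteins to ERAD, had 13.9 and 17.5 TPM in CD4 KO, against 26.7 and 20.8 TPM in CD4 WT, and 26.1 and 27.3 TPM in CD8 KO, against 30.7 and 28.6 TPM in CD8 WT. Its KO libraries were below WT in both lineages, by -0.57 ± 0.38 in CD4 and -0.15 ± 0.38 in CD8 on the log2 scale (adjusted p = 0.478 and 0.874, limma). Syvn1 (Hrd1), the ubiquitin ligase at the centre of ERAD, averaged 24.1 ± 1.68 TPM in CD4 KO and 12.5 ± 6.77 TPM in CD4 WT, without overlap, and 11.1 TPM in CD8 KO and 7.41 TPM in CD8 WT. Its partner Sel1l averaged 32.6 TPM in CD4 KO and 29.8 TPM in CD4 WT, and 33.3 TPM in CD8 KO and 32.0 TPM in CD8 WT, and its CD8 log2 difference was 0.04 with all libraries and -0.37 without CD8 WT replicate 2.

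Herpud1, a stress-induced scaffold of the same complex, averaged 214 TPM in CD4 KO and 223 TPM in CD4 WT, and 235 TPM in CD8 KO and 285 TPM in CD8 WT. Its CD8 WT replicates were at 188 and 382 TPM, and the CD8 log2 difference was -0.19 with all libraries and 0.32 without replicate 2. Derl1 was among the steadiest genes, at 159 to 197 TPM in all 8 libraries. Derl2 averaged 124 TPM in CD4 KO and 134 TPM in CD4 WT, and 145 TPM in CD8 KO and 85.3 TPM in CD8 WT, where replicate 2 was at 49.8 TPM. Its CD8 log2 difference was 0.89, and 0.26 without that library. Derl3, the derlin that plasma cells express, was listed at 0 in both CD8 KO libraries, against 2.74 and 9.52 TPM in CD8 WT, and stood at 1.17 and 3.49 TPM in CD4 KO, against 0 and 4.36 TPM in CD4 WT. The selenoproteins H47 (Selenos) and Selk (Selenok), which bind the derlins and p97, overlapped WT in CD4 cells. H47 averaged 212 TPM in CD4 KO and 220 TPM in CD4 WT, and 256 TPM in CD8 KO and 211 TPM in CD8 WT without overlap. Selk averaged 234 TPM in CD4 KO and 217 TPM in CD4 WT, and 280 TPM in CD8 KO and 250 TPM in CD8 WT. The CD8 log2 difference was 0.29 for H47 and 0.21 for Selk with all libraries, and 0.10 and 0.62 without CD8 WT replicate 2. Sec61b, the small subunit of the translocon, averaged 15.1 TPM in CD4 KO and 21.3 TPM in CD4 WT, and 18.8 TPM in CD8 KO and 13.5 TPM in CD8 WT. Its CD4 libraries did not overlap in TPM but did with FPKM and with median-of-ratios scaling.

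The wider pathway was described with 4 further lists of 102 tested genes. In CD4 cells 42 were positive and 60 negative with a median of -0.12, beside 41.7% positive and a median of -0.16 over all genes. Of these 102, limma called 1, beside 0.713% of all genes, and 18 had an unadjusted p under 0.05, beside 16.7%. In CD8 cells 72 were positive and 30 negative with a median of 0.19, beside 52.4% positive and a median of 0.05 over all genes. There limma called 0, beside 0.297% of all genes, and 23 of 102 had an unadjusted p under 0.05, beside 15.1%. The call was Rhbdd1, an ER rhomboid protease of ERAD, which fell to 1.39 and 0.911 TPM in CD4 KO, against 15.7 and 20.3 TPM in CD4 WT (log2 difference -3.14 ± 0.52, adjusted p = 0.0416, limma). Rhbdd1 spans 129 kb, and with the trend on span removed its value was -2.12 ± 0.49 (adjusted p = 0.163). The call was made under 8 of 17 alternatives and was also lost without the filter on low values (adjusted p = 0.0941), with the replicate block (adjusted p = 0.0537) and when any one of the CD4 or the CD8 KO libraries was left out (adjusted p from 0.0972 to 0.375). In CD8 cells it had 6.77 and 3.80 TPM in KO, against 16.5 and 13.9 TPM in WT.

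By list, the 29 other folding genes were 11 positive and 18 negative in CD4 and 16 and 13 in CD8. The 29 other ERAD genes were 11 and 18 in CD4 and 23 and 6 in CD8. The 23 translocon and signal peptide genes were 11 and 12 in CD4 and 21 and 2 in CD8. The 21 other regulators and targets of the response were 9 and 12 in CD4 and 12 and 9 in CD8. Over all genes, 41.7% were positive in CD4 and 52.4% in CD8. The CD8 counts include CD8 WT replicate 2 and were not repeated without it. Sec61a1, the channel subunit of the translocon, had 304 and 307 TPM in CD4 KO, against 141 and 125 TPM in CD4 WT, and 235 and 235 TPM in CD8 KO, against 132 and 113 TPM in CD8 WT. All 4 of its KO libraries lay above all 4 WT libraries. Its log2 differences were 1.20 ± 0.27 in CD4 (adjusted p = 0.0804) and 0.94 ± 0.27 in CD8 (adjusted p = 0.183, limma). The CD4 difference was called under 6 of 17 alternatives. Among them were FPKM (95 of all genes called in CD4), median-of-ratios scaling (141), the compared groups alone (243) and library weights (1260). The main fit called 84. Leaving out 1 CD8 WT library, replicate 1 or 2, also gave the call, in fits with far more genes called than in the main fit. Srprb of the signal recognition particle receptor had 69.2 and 90.3 TPM in CD4 KO, against 27.9 and 52.9 TPM in CD4 WT, and Srp19 of the particle had 100 and 119 TPM in CD8 KO, against 45.9 and 36.6 TPM in CD8 WT. Bag6, a cytosolic chaperone for ERAD substrates, had 20.3 and 22.0 TPM in CD8 KO, against 5.74 and 11.6 TPM in CD8 WT.

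Several of the other genes the naming rule selected are long and were lower in CD4 KO. The BiP exchange factor Sil1, spanning 233 kb, had 2.05 and 1.51 TPM in CD4 KO, against 18.9 and 14.8 TPM in CD4 WT. The J-domain gene Dnajc1, spanning 186 kb, had 13.9 and 15.8 TPM in CD4 KO, against 42.4 and 41.9 TPM in CD4 WT. Ubac2, spanning 142 kb, had 159 and 226 TPM in CD4 KO, against 404 and 478 TPM in CD4 WT, and Creb3l2, an ER-anchored transcription factor gene spanning 111 kb, had 0.202 and 1.13 TPM, against 4.64 and 10.2 TPM. None of these 4 was called by limma in CD4 (adjusted p = 0.0811, 0.12, 0.195 and 0.139). All 4 were called there with library weights, a setting that called 1260 of all genes in CD4, against 84 in the main fit. Sil1, Dnajc1 and Ubac2 were also called when 1 CD8 WT library, replicate 1 or 2, was left out. Those fits, too, called far more genes in CD4 than the main fit. The CD4 log2 differences of these genes were unchanged in all of these fits. With the trend on span removed, their CD4 log2 differences were -1.27 for Sil1, -0.18 for Dnajc1, -0.12 for Ubac2 and -1.39 for Creb3l2, against -2.68, -1.45, -1.21 and -2.31 without that step. In CD8 cells Mcfd2, a cofactor of the cargo receptor Lman1, had 176 and 150 TPM in KO, against 18.8 and 13.2 TPM in WT, but ranged from 12.8 to 122 TPM in the CD4 libraries. The oxidase gene Ero1lb had 8.35 and 15.3 TPM in CD8 KO, against 24.6 and 116 TPM in CD8 WT, a log2 difference of -2.15 with all libraries and -1.05 without CD8 WT replicate 2. The stress factor Atf3 had 0.775 and 5.79 TPM in CD8 KO, against 14.4 and 346 TPM in CD8 WT, the highest value again in replicate 2, and its log2 difference was -4.39 with all libraries and -2.15 without that library. Crebl2 had 5.38 and 0 TPM in CD8 KO, against 9.89 and 5.74 TPM in CD8 WT.

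Whether the KO effect differed between lineages was tested as the CD8 minus CD4 difference of effects. The limma test called 0 of the 30 genes and 0 of all genes (0%), with 5 of the 30 and 819 of all genes (6.95%) at an unadjusted p under 0.05. These 5 were Dnajb9, Sdf2l1, Calr, Canx and Derl3. For Dnajb9 the difference was -1.57 ± 0.64 and for Sdf2l1 it was 1.02 ± 0.44 (adjusted p = 0.701 for both). Both KO comparisons use separate libraries, so the values share no controls.

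Between lineages in WT cells, 0 of the 30 genes were called for CD8 WT against CD4 WT, beside 0.195% of all genes, and 2 had an unadjusted p under 0.05, beside 8.67% of all genes. Hspa5 averaged 838 TPM in CD8 WT and 220 TPM in CD4 WT (log2 difference 1.68 ± 0.73, adjusted p = 0.568), and CD8 WT replicate 2 alone, at 1421 TPM, set that mean. Pdia4 averaged 130 TPM in CD8 WT and 227 TPM in CD4 WT (log2 difference -0.82 ± 0.31, adjusted p = 0.523, limma). The median over the 30 genes was 0.01, with 15 positive and 15 negative, beside a median of -0.26 over all genes.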

How the data were processed

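Reads were aligned with HISAT to mouse mm10, per the submitters' processing notes. The sources used here give neither the aligner's version nor the program that wrote the gene tables. The deposited tables give TPM per gene, scaled by the authors to the same total in every library, per the file headers. The deposited tables also give FPKM and a coverage signal per gene, per the file headers. From these, rows of 1 symbol (136 to 261 symbols per library sit on several rows) were summed, and aligned bases were estimated by dividing coverage by FPKM, a quotient within 1% of its library's typical value for 83.8% to 84.4% of genes. The labels name a SMARTER mRNA kit and TRIzol RNA. The labels name DESeq2 for the authors' own test, but with no read counts in the tables it was not run.

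The 11786 genes averaging 1 TPM or more across libraries were fitted on log2(TPM + 1) with limma 3.58.1 (R 4.3.3), with a trend on intensity, group means and 1 pooled spread (4 residual degrees of freedom, prior 5.68), Benjamini-Hochberg adjustment and a threshold of 0.05. A log2 difference on this scale understates changes of low genes. The steps were tested on simulated data. All 8 libraries entered the 4 comparisons. Values in every library are given for genes called in any comparison, genes without overlap on the same side in both lineages, the 6 with the highest mean, and Xbp1, Ern1, Atf6 and Eif2ak3. Further genes of the 4 pathway lists were named if called or if among the 2 largest differences per list and KO comparison without overlap and with at least 5 TPM in the higher group. The 30 genes and the lists were chosen with earlier results of these data known. Older symbols matched Fam8a1 (C78339) and Mzb1 (2010001M09Rik), and 9 pathway genes under the filter were not tested. Alternatives were a pseudocount of 0.5, no filter, a mean of at least 5 TPM, FPKM, median-of-ratios scaling, the compared groups fitted alone, library weights, a replicate block, removal of the trend on gene span, and each library left out. Counts of genes without overlap were repeated without CD8 WT replicate 2 and under both other scalings, chosen after seeing the data. Promoter matches used RefSeq windows of GRCm38.p6. The level of 1 marker gene is not reported here.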

Additional observations from a re-analysis of the deposited data

Results flagged for a closer look

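Pdia4, a disulfide isomerase gene, had both KO libraries below both WT libraries in CD4 cells, at 216 and 151 TPM in CD4 KO against 233 and 220 TPM in CD4 WT. In CD8 cells both KO libraries were above both WT libraries, at 165 and 175 TPM in CD8 KO against 152 and 108 TPM in CD8 WT. It stands here because its libraries lay on opposite sides in the 2 lineages. With median-of-ratios scaling and with FPKM the CD4 libraries overlapped, so the opposite sides did not hold there. The difference of the KO effects, CD8 minus CD4, was 0.73 ± 0.43 on the log2 scale and did not pass limma's test (adjusted p = 0.719).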

How the results depend on the processing

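Genes called over the whole table varied widely with the settings. For CD4 KO against WT the count was 84, with 0 without a filter, 141 with median-of-ratios scaling, 243 with the compared groups alone, 1260 with library weights, 29 with the replicate block, 20 with the span trend removed, and 0 to 768 with a library left out. For CD8 KO against WT it was 35, with 0 without a filter, 0 with the groups alone, 0 with library weights, and 0 to 1842 with a library left out. For the difference of the effects it was 0, with 0 to 1148 when a library was left out, and for WT CD8 against WT CD4 it was 23, with 1 without a filter, 0 with the groups alone, 15 with library weights, and 0 to 1629 with a library left out. Among the fits with a library left out, the highest counts came without CD8 WT replicate 1 or 2. The CD4 calls were 22 higher and 62 lower, and 62 higher and 79 lower with median-of-ratios scaling, which moved the median of all genes from -0.16 to 0.03 in CD4. Where 0 genes were called without a filter, 2733 in CD4 and 2047 in CD8 had an unadjusted p under 0.05.

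The median over the 30 genes was 0.05 in CD4, with 0.25 under median-of-ratios scaling, 0.16 with the span trend removed and -0.04 to 0.14 with a library left out. In CD8 it was 0.23, with 0.27 at a mean of at least 5 TPM, 0.12 under median-of-ratios scaling, 0.03 with the span trend removed and 0.23 to 0.35 with a library left out. For the difference of effects it was 0.00, with -0.11 with FPKM, -0.32 under median-of-ratios scaling, -0.21 with the span trend removed and -0.03 to 0.14 with a library left out. For WT CD8 against WT CD4 it was 0.01, with 0.14 with FPKM, 0.30 under median-of-ratios scaling, 0.28 with the span trend removed and -0.10 to 0.03 with a library left out. Positive genes in CD4 numbered 17 of 30, and 20 with FPKM and 21 with median-of-ratios scaling. The cause of these shifts was not tested.

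Of the 2002 differences of single genes among the 30 recomputed under all alternatives, 8 lost a call (all of Calr in CD4 cells) and 28 gained one. Most of the gains came in the fit without CD8 WT replicate 1. A called direction was reversed in 0, a count that says little because the main fits called only Calr. Among differences called under neither fit, 43 of 1029 changed sign in settings other than leave-outs. With a library left out, 75 of 960 changed sign. Replicate numbers are shared between groups, but same-numbered libraries did not deviate together (correlations from -0.0359 to 0.0942), so the numbers are not taken to pair them. The replicate block gave 29 calls in CD4, with Calr among them, and Rhbdd1 was not called (adjusted p = 0.0537), and it changed no other call among the named genes. The tables hold no read counts, so the counting error of low genes such as Ern1 and Derl3 is unknown.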
